A study of Mus musculus with 2 samples.

Results

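The genes described here encode the protein machinery that removes introns from nuclear transcripts, together with the hnRNPs that coat those transcripts. Members were the probe sets that the platform annotation assigned to 1 gene whose symbol begins with Hnrnp, Srsf, Snrp, Sf3a, Sf3b or Prpf, or is U2af1, U2af2, Sf1, Ptbp1, Ptbp2 or Tra2b. This gave 75 probe sets of 54 genes, out of 12422 non-control probe sets and 8251 named genes. They were measured in total RNA of mouse liver, bought from a commercial supplier, on 2 single-colour Affymetrix arrays called replicate 1 and replicate 2. Both samples are titled liver and form 1 group with no treatment, and the labels used here give no strain, sex or age. Nothing in the labels says that the arrays hold RNA of different animals, so their spread may be technical only.

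In splicing, small nuclear ribonucleoproteins (snRNPs), each a small RNA with particle-specific proteins and a ring of Sm proteins (Sm-like proteins in U6), recognise the intron's ends and its branch point and assemble on it. PRPF proteins join the later particles and rearrange them into the active spliceosome. SR proteins, rich in arginine and serine, bind exons and mostly promote their inclusion, whereas hnRNPs often oppose inclusion and also act in packaging, export, stability and translation of RNA. All cells that splice need the core machinery, while the balance of SR proteins and hnRNPs differs between tissues.

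The source field of both samples names spleen, so the liver title was checked against marker genes. All 12 hepatocyte markers were above background on both arrays, from Alb, albumin, at 64626.5 and 65799.7 on replicates 1 and 2, to Ass1, a urea cycle enzyme, at 1252.5 and 1064.7. Of 14 measured spleen and lymphocyte markers 0 were above background on both arrays. The brightest was Cd4, a T cell co-receptor, at 337.3 and 503.0, above background on replicate 2 alone. The B cell gene Cd79a gave 450.3 and 333.4. The marker signals thus went with the liver title rather than the source field. Median signals over all probe sets were 163.2 and 157.6.

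The background threshold was taken from 104 measured genes typical of the testis, the brain, striated muscle or the retina, at their 95th percentile. It lay at 471.7 on replicate 1 and at 431.2 on replicate 2, percentiles 73.9 and 72.4 of the non-control probe sets. Because the threshold is a percentile of these same genes, a few of them exceed it on each array by construction. On both arrays 5 did: Pcp2, Tnp1, Clgn, Crybb2 and Acta1. All of these except Acta1 were read from probe sets with the suffix r, which is explained with Snrpb below. A gene under the threshold is described as not above background, which does not mean that it was not expressed. Brightness also depends on the probes' sequence, so positions within the array's signal do not rank transcripts by abundance. In RNA of a whole organ, fewer cells that express a gene and less of its RNA per cell cannot be told apart.

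Splicing genes lay across the whole range of signal rather than at its bright end. Of the 75 member probe sets 25 (33.3%) exceeded background on both arrays, against 25.7% of the 10833 single-gene probe sets. Another 2 passed on replicate 2 alone and 48 on neither array. Their median percentile was 60.4, against 51.4 for all single-gene sets. By gene, 23 of 54 (42.6%) were above background, against 30.9% of all genes. The share followed the threshold for members and for all probe sets alike. At the 99th percentile of the background genes 13 member sets (17.3%) passed, against 14.1% of all, and at a fixed signal of 200 they were 39 (52.0%), against 42.8%.

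**Figure D1:**
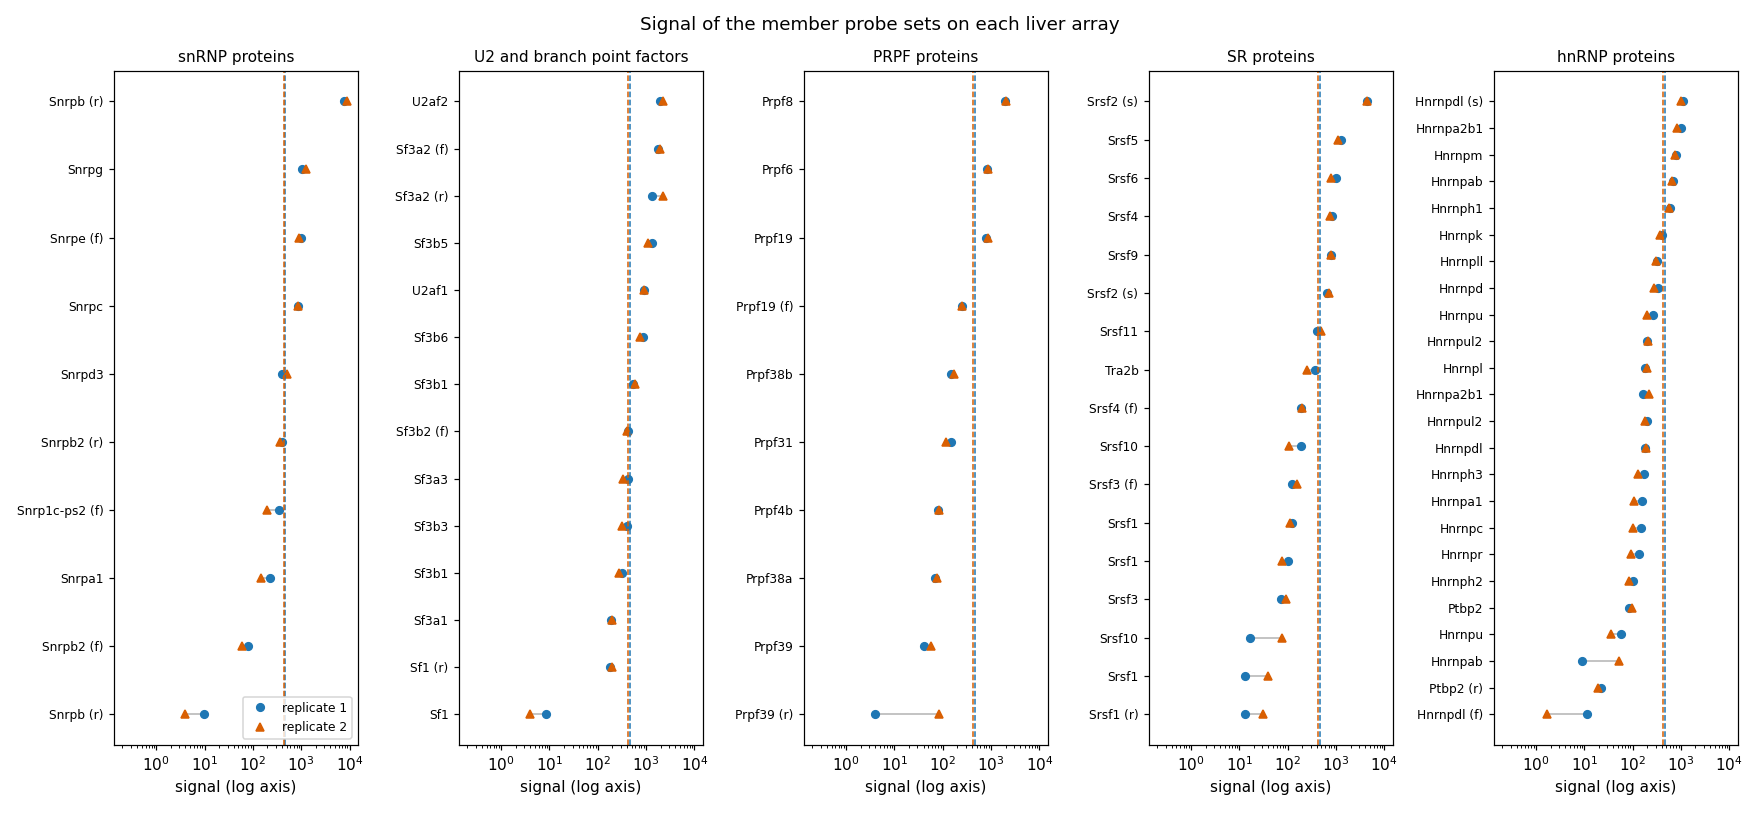
Signal (log axis) of each of the 75 member probe sets on replicate 1 (circles) and replicate 2 (triangles), by role and ordered by brightness, with letters in brackets for probe set suffixes and dashed lines at the background thresholds of 471.7 and 431.2. The brightest set of each role lies to the right of both lines and several of the dimmest sets, at the foot of the panels, show wide gaps between the arrays.

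The snRNP proteins were the role with the brightest single probe set. Of 8 genes, 4 were above background on both arrays, and the 10 probe sets had a median percentile of 71.6. Snrpb, the Sm protein B of the ring shared by the spliceosomal snRNPs, reached 7651.4 on replicate 1 and 8835.5 on replicate 2, at percentile 98.0. This was the highest value of any member. Its other probe set gave 9.8 and 3.9, at percentile 2.0. Both sets carry the suffix r, which marks sets that did not meet all of the manufacturer's rules for choosing probes, and which of them reports the gene's level cannot be settled from these values.

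Other Sm ring proteins were Snrpg at 1049.9 and 1283.7, Snrpe at 1011.4 and 889.9, and Snrpd3 at 404.7 and 497.0. The first and second were above background on both arrays and Snrpd3 on replicate 2 alone. The set for Snrpe has suffix f, given to sets whose probes match a gene family, so near-identical copies may share its signal. Snrpc, the U1-specific C protein that helps to recognise the start of the intron, gave 872.8 and 859.2, with both arrays above background.

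Sets for the U2 proteins Snrpa1 and Snrpb2 lay under the threshold. Snrpa1, the U2 A′ protein, gave 227.7 and 148.7. Snrpb2, the U2 B″ protein, gave 391.8 and 365.2 in one set and 79.3 and 58.5 in the other. All 3 sets stayed under it on both arrays. The rule also took in Snrp1c-ps2, annotated by RefSeq as a pseudogene, whose set of suffix f gave 353.5 and 200.5, not above background.

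Factors that define the branch point and the end of the intron had the largest share of genes above background at the threshold used here. These were 6 of 11 genes (54.5%), against 30.9% of all genes, and the 14 probe sets had a median percentile of 74.4. The lead was small, with 5 of 10 SR protein genes and 4 of 8 snRNP genes above background. Ranked among genes, each read from its brightest set, the role's median was 72.3, under 73.2 for SR proteins and 74.4 for snRNP proteins. The order of these roles therefore depends on the measure, and shares by role were not compared at other thresholds. U2af2, which binds the pyrimidine tract, gave 1930.6 and 2182.3, and U2af1, its partner at the AG that ends the intron, gave 905.5 and 895.5. Both parts of this dimer were above background on both arrays. Sf1, which marks the branch point before U2 arrives, was not: its sets gave 180.1 and 197.7 (suffix r) and 8.4 and 4.0. The dimmer of those was the lowest set of all members by mean signal, 6.2 ± 3.11 (SD, n = 2 arrays).

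Subunits of the complexes SF3A and SF3B, which hold U2 on the branch point, were above background in part. Sf3a2 was bright in both of its sets, at 1785.5 and 1895.6 in the set of suffix f and at 1294.6 and 2236.3 in the set of suffix r. Sf3a3 gave 427.5 and 331.6, and Sf3a1 gave 185.1 and 196.6, neither above background. Thus 1 of the 3 SF3A genes was above it.

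Among SF3B genes, the small subunit gene Sf3b5 gave 1347.4 and 1100.8, and Sf3b6, whose protein lies beside the branch point adenosine, gave 850.4 and 737.3. Sf3b1, the large subunit that clasps the branch helix, gave 526.7 and 596.8 in one set and 313.2 and 274.2 in the other. The brighter of these was the member set just inside the background threshold. Just outside lay Sf3b2, which contacts RNA beside the branch point, at 413.8 and 397.5. Sf3b3, a scaffold subunit, gave 394.8 and 312.0. Calls on these 3 genes therefore turn on where the threshold is put.

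Of 8 PRPF protein genes 3 (37.5%) were above background, against 30.9% of all genes, and 5 were not. Prpf8, the U5 protein at the catalytic centre, gave 1955.5 and 2042.0, at percentile 92.7. Prpf6, which bridges U5 to the U4/U6 particle, gave 840.7 and 846.4. Prpf19, a ubiquitin ligase that gives its name to the complex needed for activation, gave 777.2 and 862.2 in its plain set and 246.6 and 245.2 in the set of suffix f. In their brighter sets the arrays were within a factor of 1.11 of each other for these 3 genes.

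The other 5 were Prpf38b, the U4/U6 protein Prpf31, the kinase Prpf4b, Prpf38a and the U1-associated Prpf39. Their brighter or only sets had mean signals between 48.2 (Prpf39) and 160.3 (Prpf38b). The lowest set of the role, a suffix r set of Prpf39, gave 4.0 on replicate 1 and 82.5 on replicate 2, a gap at signals well under the threshold. The median percentile of the 10 PRPF sets was 48.2, under that of all named sets.

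Of the measured SR protein genes, 5 of 10 were above background on both arrays. Srsf2, also known as SC35, stood out with 4356.3 and 4387.5 in one set and 665.5 and 710.0 in another, both of suffix s, used where probes match several similar transcripts. It shares with Sf3a2 the property that every set of the gene was above background. Srsf5 gave 1292.5 and 1098.7, and Srsf6 gave 996.0 and 790.4. Srsf9 gave 771.0 and 785.7. Srsf4 gave 837.4 and 757.6 in its plain set and 191.2 and 199.2 in its set of suffix f.

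Srsf1, the SR protein in which the family's activity was first worked out, was measured by 4 probe sets and none was above background on either array. They gave 125.6 and 113.7, then 101.7 and 76.3, then 13.1 and 40.0, and in the set of suffix r 12.9 and 31.2. Srsf3, the smallest SR protein, gave 124.6 and 154.0 in the set of suffix f and 71.1 and 90.8 in the other. Srsf10, which represses splicing when dephosphorylated, gave 184.4 and 104.2 in its brighter set and 16.9 and 76.3 in its dimmer one. So 3 of the 10 genes had no set above background despite being probed more than once.

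Tra2b, which binds purine-rich exonic enhancers, gave 361.0 and 252.2, not above background. Srsf11 gave 395.4 and 494.2 and passed the threshold on replicate 2 alone. The 17 SR probe sets had a median percentile of 55.3, between that of all named sets and that of the snRNP proteins.

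Promoters of 4 of these genes are shown to set bright members beside dim ones. Each is the 250 bases before the RefSeq start (build GRCm38.p6), read 5′ to 3′ on the gene's strand. Capitals mark matches to the motifs described after the sequences, on either strand. Srsf2 (chr11:116853095-116853344, minus strand) and Prpf8 (chr11:75486527-75486776, plus strand) were bright, while Srsf1 (chr11:88047123-88047372, plus strand) and Srsf3 (chr17:29032410-29032659, plus strand) had no set above background.
Srsf2: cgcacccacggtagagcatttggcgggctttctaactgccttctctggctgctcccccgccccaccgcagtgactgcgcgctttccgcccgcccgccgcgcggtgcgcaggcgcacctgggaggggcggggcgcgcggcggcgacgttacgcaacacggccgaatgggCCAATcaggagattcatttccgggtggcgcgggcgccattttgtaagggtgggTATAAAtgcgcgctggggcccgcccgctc
Prpf8: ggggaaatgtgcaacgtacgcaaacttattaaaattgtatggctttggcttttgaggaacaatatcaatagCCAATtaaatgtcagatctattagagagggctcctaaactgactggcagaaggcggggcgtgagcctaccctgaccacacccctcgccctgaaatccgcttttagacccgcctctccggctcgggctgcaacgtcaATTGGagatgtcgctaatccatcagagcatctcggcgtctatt
Srsf1: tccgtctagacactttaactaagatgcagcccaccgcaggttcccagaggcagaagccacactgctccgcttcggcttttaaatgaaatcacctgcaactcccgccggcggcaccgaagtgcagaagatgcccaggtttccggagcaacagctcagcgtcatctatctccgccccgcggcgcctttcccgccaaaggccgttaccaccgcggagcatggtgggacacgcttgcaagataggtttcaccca
Srsf3: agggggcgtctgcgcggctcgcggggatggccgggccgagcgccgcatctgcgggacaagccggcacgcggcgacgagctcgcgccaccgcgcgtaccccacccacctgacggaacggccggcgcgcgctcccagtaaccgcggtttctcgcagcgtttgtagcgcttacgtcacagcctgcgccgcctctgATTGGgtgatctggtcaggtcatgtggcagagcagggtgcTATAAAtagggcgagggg
Srsf2 and Srsf3 both had a GC share of 69.6% and both held a CCAAT match and a TATAAA match. Whether promoter letters bear on the signal was not tested. The observed over expected ratio of CG pairs was 1.09 for Srsf2, 0.85 for Prpf8, 0.91 for Srsf1 and 1.16 for Srsf3. In this window Srsf1 held none of the letters searched.

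The promoter table had entries for 48 of the 54 member genes, 60 promoters in all, some of which overlap because a gene has several starts. Their median CG ratio was 0.90, against 0.67 over the 8408 promoters of all array genes. Both strands were searched, and the motifs do not overlap one another in the 4 promoters shown. CCGGAAG, the core bound by ETS factors, was in 18 member promoters (30.0%), against 11.3% for all array genes and 6.91% of the 32851 promoters in the table. GCGCATGC, from the palindrome bound by NRF1, was in 3 (5.0%), against 3.78% and 2.26%. CCAAT was in 29 (48.3%), against 34.6% and 33.8%, and TATAAA in 4 (6.67%), against 8.93% and 12.4%. The cAMP response element TGACGTCA was in 1 member promoter (1.67%), against 2.21% and 1.55%, and TCTCGCGA, a palindromic promoter element, was in 4 (6.67%), against 1.61% and 0.858%. Counted by gene, CCGGAAG was in 15 of 48 (31.2%), against 13.6% of all array genes, and CCAAT in 23 (47.9%), against 40.0%. TATAAA was in 4 genes (8.33%), against 10.9%. The 4 promoters with TCTCGCGA belonged to 3 genes (6.25%), against 1.9% of array genes. Such matches describe letters and were not tested as binding sites.

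The hnRNPs had the smallest share of genes above background of the 5 roles at the threshold used here. Ranked among genes, however, their median was 50.8, above the 39.9 of PRPF proteins. Of 17 genes 5 (29.4%) were above background, close to the 30.9% of all genes, and the 24 probe sets had a median percentile of 54.1. The brightest set belonged to Hnrnpdl, a relative of the AU-rich element binding protein hnRNP D, at 1112.1 and 1009.7 in a set of suffix s. Hnrnpa2b1, which binds and sorts many messenger RNAs, gave 982.5 and 834.9. Hnrnpm, a regulator of alternative exons, gave 786.8 and 763.4. Hnrnpab gave 677.6 and 648.8, and Hnrnph1, which binds runs of G, gave 604.3 and 578.8. For these 5 sets the arrays were within a factor of 1.18 of each other.

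Several hnRNPs regarded as abundant nuclear proteins were not above background in their single-gene probe sets. Hnrnpa1, a silencer of exons that shuttles between nucleus and cytoplasm, gave 156.4 and 107.9. Hnrnpc, which packages U-rich nascent RNA, gave 149.8 and 102.2, Hnrnpk, a C-rich RNA binder, 404.8 and 364.3, and Hnrnpl, which binds CA repeats, 178.8 and 196.9. Hnrnpu, a scaffold attachment protein, gave 258.3 and 200.4 in its brighter set and 56.3 and 35.1 in its dimmer one. Hnrnpk was the brightest of the 12 hnRNP genes that were not above background. Its signals exceeded the 90th percentile of the background genes, 305.7 on replicate 1 and 322.7 on replicate 2, so its call depends on the threshold.

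Ptbp2, the neuronal relative of the polypyrimidine tract protein, gave 83.3 and 95.1 in one set and 21.9 and 19.0 in the set of suffix r. Neither set was above background on either array. No probe set named Ptbp1 alone, so the form that most non-neuronal cells use was not analysed here. The remaining genes of this role (Hnrnpd, Hnrnph2, Hnrnph3, Hnrnpll, Hnrnpr and Hnrnpul2) had mean signals in their brighter or only sets between 92.0 (Hnrnph2) and 311.5 (Hnrnpll), and none was above background.

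**Figure D2:**
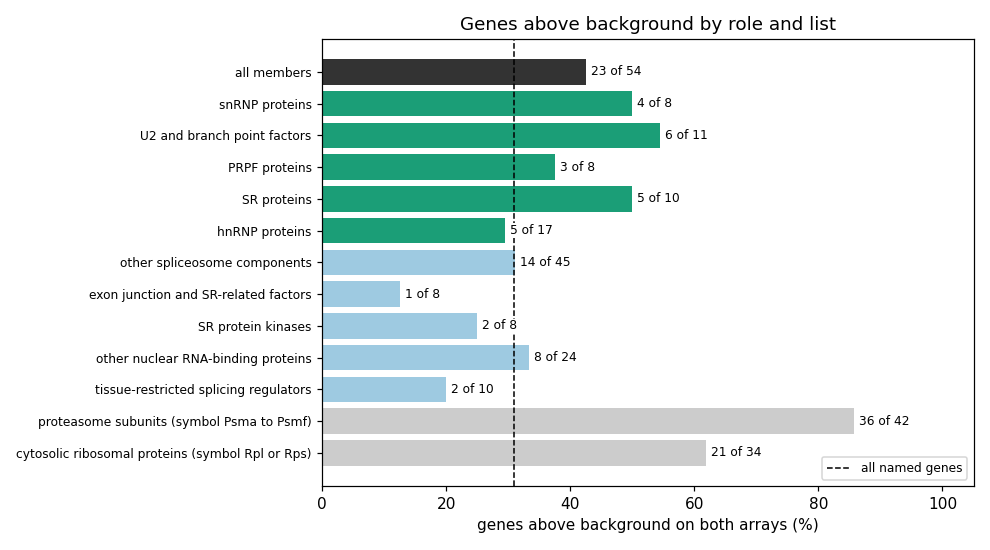
Percentage of genes above background on both arrays for the member genes, their 5 roles, 5 lists of other genes of splicing and RNA binding, and 2 comparison families, with the number of genes at each bar and a dashed line for all named genes (30.9%). Members reach 42.6%, hnRNPs lie just under the line, and proteasome subunits reach 85.7%.

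Other genes of the pathway were taken from 5 lists. Of 62 further spliceosome components 45 were measured and 14 (31.1%) were above background. Bud31 was highest, at 2394.4 and 2318.6 (suffix s), and Rbm22 lowest by mean log2 signal, at 4.7 and 58.8 (suffix r). Both are proteins of the activated spliceosome. The list's share lay at that of all genes, 30.9%. Exon junction and SR-related factors had 1 of 8 (12.5%) above background. The highest gene of this list was the splicing coactivator Srrm1 (900.8 and 843.5) and its lowest the related Srrm2 (20.0 and 5.0, suffix r).

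Kinases that phosphorylate SR proteins had 2 of 8 genes above background, with Clk1 highest at 1122.2 and 813.3 and Srpk3, a muscle form, lowest at 42.5 and 36.1. Of 10 measured tissue-restricted regulators 2 (20.0%) were above background. Mbnl1, a muscleblind protein, was highest at 705.5 and 681.9, and the epithelial regulator Esrp1 was lowest at 14.0 and 7.8. Other nuclear RNA-binding proteins had 8 of 24 (33.3%) above background, near the share of all genes. They ran from Pcbp1, a C-rich RNA binder, at 4154.6 and 4416.2 down to Taf15 at 8.7 and 51.0 (suffix r). Each of these lists has fewer genes above background, as a share, than the members' 42.6%, a description that was not tested. By probe set, however, the other spliceosome components had a median percentile of 62.0, against 60.4 for the members. Ranked among genes these medians were 60.5 and 63.5. The remaining lists had probe set medians from 23.7 (tissue-restricted regulators) to 55.5 (kinases).

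Other families used by most cells had larger shares above background. The members' 23 of 54 genes compare with 36 of 42 proteasome subunit genes (85.7%) and 21 of 34 cytosolic ribosomal protein genes (61.8%). By probe set the median percentile was 60.4 for members, 86.6 for proteasome subunits and 71.4 for ribosomal proteins. Ranked among genes, each read from its brightest set, the medians were 63.5, 87.9 and 95.1, so the order of the last 2 families depends on the measure. These families have different probes, and the differences were not tested.

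Genes probed more than once gave a check within the array. Of the 54 member genes 36 had 1 probe set, of which 14 were above background, and 18 had more than 1. Among these 18, 7 (Hnrnpa2b1, Hnrnpab, Hnrnpdl, Prpf19, Sf3b1, Snrpb and Srsf4) had a set above background on both arrays and another that was on neither. The same held for 30.4% of the 2073 array genes with more than 1 set. A further 2 genes, Srsf2 and Sf3a2, had every set above background, and 9 had none.

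The brightest and dimmest sets of a member gene differed by a median factor of 4.60 in geometric mean signal, against 4.41 over all genes with several sets. Many of the dimmer sets lay under the threshold, so these factors are uncertain. The widest gaps were those of Snrpb, given above, and Hnrnpdl, whose sets other than the brightest gave 176.6 and 191.4, and 11.3 and 1.7 (suffix f). Hnrnpab had a second set at 8.8 and 53.5, and that of Hnrnpa2b1 gave 161.4 and 215.2. At the other end the sets of Sf3a2, both above background, differed by a factor of 1.08. Of the member sets 20 (26.7%) had a suffix, against 21.0% of all named sets, and 7 of those 20 (35.0%) were above background, against 21.9% of all suffixed named sets.

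**Figure D3:**
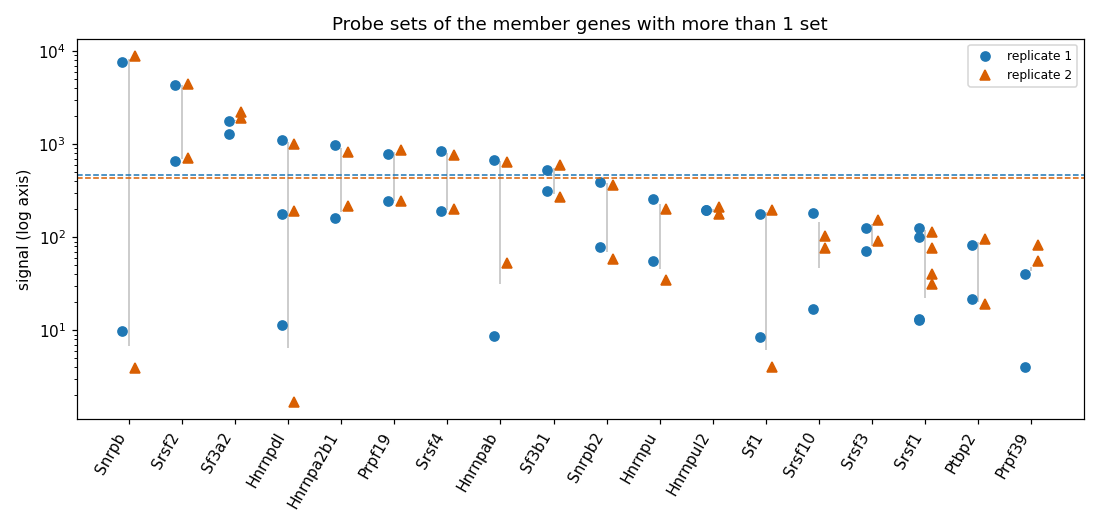
Signal (log axis) of every probe set of the 18 member genes with more than 1 set, on replicate 1 (circles) and replicate 2 (triangles), with dashed lines at the background thresholds. Grey bars join the mean signals of the dimmest and brightest set, and the bar of Snrpb spans 6.8 to 8243.4.

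The arrays gave similar values for the brighter members, as they did for most probe sets in the brighter 50%. Of the 75 member sets 49 were among the brighter 50% of all probe sets, and 0 of the 49 differed by more than 2-fold between the arrays, against 2.09% of all 6211 probe sets there. The SD of the log2 difference (replicate 2 minus replicate 1) was 0.272 for the members and 0.362 for all. The median log2 difference was -0.01, with 22 members higher on replicate 2 and 27 lower.

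The largest of these differences belonged to Snrp1c-ps2, at -0.81, followed by the suffix r set of Sf3a2 at 0.79, Snrpa1 at -0.61 and Tra2b at -0.51. The other set of Sf3a2 differed by 0.09. Below the brighter 50% lay 26 member sets, of which 8 differed by more than 2-fold. This was near the share over all sets there, 2132 of 6211 (34.3%). These 8 were sets of Prpf39, Hnrnpab, Hnrnpdl, Srsf10, Srsf1 (2 sets), Snrpb and Sf1. Over all 75 sets the log2 signals of the arrays correlated with a Pearson r of 0.927. This describes agreement across probe sets, which are not independent replicates.

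**Figure D4:**
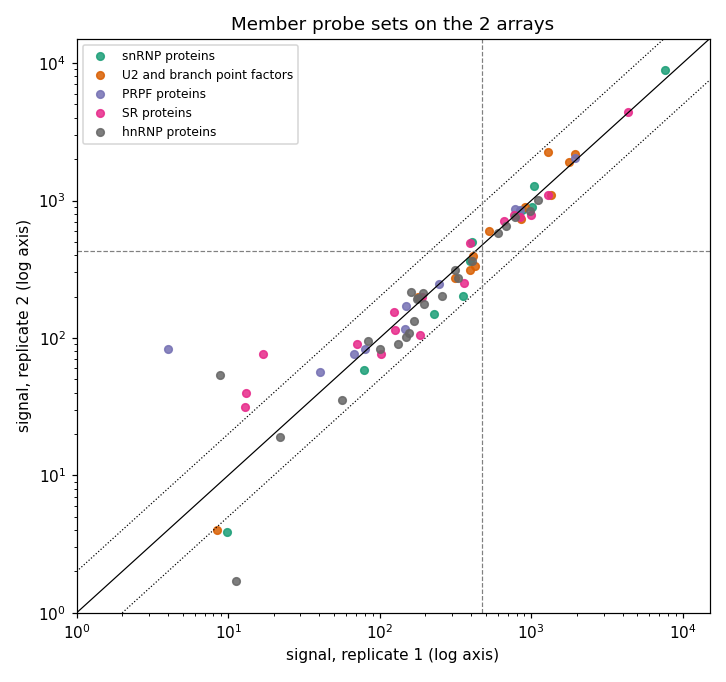
Signal of the 75 member probe sets on replicate 1 (horizontal, log axis) and replicate 2 (vertical, log axis), coloured by role, with the line of equality, dotted lines at 2-fold and dashed lines at the background thresholds. Above the thresholds the points follow the line of equality, and the points beyond 2-fold lie at low signals.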

How the data were processed

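The authors deposited 1 single-colour signal intensity per probe set and array, on a linear scale, for 2 arrays of total liver RNA. The labels name no summary method, scaling, software or genome build. The 2% trimmed mean was 500.5 on both arrays. Without scanner files neither background correction nor normalization was redone, and both affect dim signals most. Of 12488 probe sets, 66 are controls. The platform annotation named 1 gene for 10855, several genes for 396 and none for 1237. RefSeq identifiers (assembly GRCm38.p6) matched 10839 of the 10855 and changed 0 symbols. All columns were used, and 16 values were identical between the arrays.

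Percentiles rank the mean log2 signal among non-control probe sets. A gene was read from its probe set of highest mean log2 signal. The background threshold was the 95th percentile of 104 measured genes, of 116 listed for brain, testis, retina and striated muscle. This list was rewritten here because an earlier one was not at hand. Array differences are replicate 2 minus replicate 1 in log2 signal, after subtracting the median difference of -0.006, in the brighter 50% of non-control probe sets. With 1 group, no test and no p-value were possible, and the number of arrays limits the precision. The arrays are named replicate 1 and replicate 2 from their titles.

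The members and lists were chosen with earlier results of these data known. Genes named per role are the 3 highest and the lowest, those with disagreeing probe sets, and 25 fixed genes, of which 5 have no probe set of their own. In each other list the highest and the lowest are named. Genes named beyond this were chosen after their values were seen. Alternatives were 3 other background thresholds, quantile normalization, no suffixed probe sets, averaging each gene's probe sets, all or the brightest 25% of probe sets, log2(value + 32), no shift, and each array alone. Background genes of brain alone were added after seeing the data. Steps were tested on simulated data. Promoter letters are RefSeq's, build GRCm38.p6. Work was done in Python 3.11.15 with pandas 2.3.3, numpy 2.4.6 and scipy 1.17.1, and plots in matplotlib 3.10.9.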

Additional observations from a re-analysis of the deposited data

Results flagged for a closer look

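Outside the member probe sets, 7 sets named a gene of these families together with other genes, and 3 of them carried a signal above background on both arrays. These are values of shared probe sets, and how much of each signal belongs to the family gene was not tested. The set naming Snrpd2, an Sm ring protein, gave 2460.6 on replicate 1 and 2193.2 on replicate 2, a mean of 2326.9. A set naming Hnrnpa3 gave 1045.5 and 854.0, a mean of 949.8, while the other set with that name gave 51.9 and 75.9. The set naming Snrpa, the U1 A protein, gave 583.8 and 577.3, a mean of 580.6. The shared set of the Sm protein Snrpd1 (66.0 and 62.2) and both shared sets of Hnrnpa1 (56.0 and 47.4, and 73.9 and 73.5) were not above background.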

How the results depend on the processing

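Of 41 values recomputed under alternatives, 32 stayed within 1.5 times the count, or within the spread, of the reported value and 9 moved. Member probe sets above background numbered 25, and 13 at the 99th percentile of the background genes and 39 at a fixed signal of 200. Member genes above background numbered 23, and 12 (22.2%, against 17.2% of all genes) and 35 (64.8%, against 49.3%) under those thresholds. At the 90th percentile of the background genes they numbered 29 (53.7%, against 38.4% of all genes). With 1 array left out, probe sets above background ran from 25 to 27, genes from 23 to 25, and genes with disagreeing sets stayed at 7 and 7. Without suffixed sets 22 of 55 member probe sets were above background, and the share over all sets is not given there. At the main threshold 18 of those 55 (32.7%) were, against 26.8% of all named sets without a suffix. The median percentile was 57.0 without suffixed sets and ran from 57.3 to 60.9 with 1 array left out. Genes with disagreeing sets were 3 at the 99th percentile and 2 of 7 without suffixed sets, where fewer genes had several sets. The share over all genes is not given at these settings. Over all non-control probe sets 8 members differed over 2-fold between arrays. Dim signals, whose arrays differ most, limit what can be said of members under the threshold. No paired analysis was possible because the labels give a single group.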
